A study of Mus musculus with 3 samples.

Results

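The STAT5A binding sites described here lie in 5 windows of the mouse genome that surround Il2ra, Il2rb, Bcl2, Mcl1 and Pim1, genes of the IL-2 receptor and of T cell survival. A peak of either STAT5A ChIP-seq list was a member when its centre fell in the window of a gene, on build mm9. The rule uses position and no score, but the genes and windows were picked with earlier results of these data known, so the counts below are descriptions. The 5 windows together covered 1220 kb and held 39 of the 33863 peaks of both lists, with 17 of 14627 in library 1 and 22 of 19236 in library 2. All 5 windows held a peak of each library, although the Il2ra window had 0 library 1 peaks when narrowed by 25 kb on each side. At least 1 peak of a library is common, found in 63.7 to 82.2% of autosomal windows of the same lengths. At least 1 site found in both libraries is present in 44.0 to 62.9% of them. In all, 13 sites were found in both libraries, 6 of them in the Bcl2 window, 3 each in the Il2rb and Mcl1 windows, 1 in the Pim1 window and 0 in the Il2ra window.

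ChIP-seq recovers DNA crosslinked to a protein with an antibody and sequences it, and a peak is a stretch where the recovered DNA piles up. Both libraries came from purified memory CD8 T cells of C57BL/6 background that carried the TCRP1A receptor, specific for the P1A tumour antigen, and an active form of STAT5 (STAT5CA). The cells had been activated with antigen, received STAT5CA after 24 h, were cultured for a further 48 h and were recovered 70 days after transfer into congenic hosts, from spleen and lymph nodes per the protocol, although the tissue label reads blood. The 2 ChIP libraries used an antibody against STAT5A, and the remaining library of the 3 was an input, whose peaks were not analysed here. No group of cells without STAT5CA was among the samples, so the peaks carry no contrast with normal STAT5 activity. The peaks were not set against the input here, and whether the authors' peak calling used it is not stated. The labels call library 2 a replicate without saying whether it came from separate animals, so a difference between the libraries may be technical. Read totals were not analysed here, and the depth of the libraries is unknown.

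IL-2 and IL-15 signal through a receptor that includes the beta chain, encoded by Il2rb, and the common gamma chain. The alpha chain, encoded by Il2ra and also known as CD25, raises the affinity of the receptor for IL-2. Receptor-bound JAK kinases phosphorylate STAT5, which enters the nucleus as a dimer and binds DNA with the palindromic core TTCNNNGAA. Bcl2 and Mcl1 encode anti-apoptotic proteins that hold back the mitochondrial death pathway in lymphocytes, and Pim1 encodes a serine/threonine kinase that promotes survival and growth. All of these genes are known as targets of cytokine signalling through STAT5 in lymphocytes.

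No mm9 genome was used, so the bases under the peaks are not given. The promoter sequence of the members comes from RefSeq on another build, GRCm38.p6, whose coordinates must not be set beside the mm9 positions below. Of the 5 genes, 4 matched the RefSeq promoter table, and Il2rb did not. The 2 sequences shown are the 250 bases before the annotated start of Bcl2, whose window held the most shared sites, and of Il2ra, whose window held none. Capitals mark TTCC and its reverse complement GGAA, letters that occur in many STAT sites and also in sites of other factors, searched on both strands. Il7r, which encodes the IL-7 receptor alpha chain, is shown because it was the only gene of the receptor and signalling list whose promoter held TTCNNNGAA, and there capitals mark that match.
Bcl2, GRCm38.p6 chr1:106714291-106714540, minus strand: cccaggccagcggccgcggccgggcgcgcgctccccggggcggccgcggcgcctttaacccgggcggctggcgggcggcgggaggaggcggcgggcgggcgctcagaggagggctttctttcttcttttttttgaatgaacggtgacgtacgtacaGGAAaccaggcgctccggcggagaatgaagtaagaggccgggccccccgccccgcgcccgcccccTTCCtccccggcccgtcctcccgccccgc
Il2ra, GRCm38.p6 chr2:11642542-11642791, plus strand: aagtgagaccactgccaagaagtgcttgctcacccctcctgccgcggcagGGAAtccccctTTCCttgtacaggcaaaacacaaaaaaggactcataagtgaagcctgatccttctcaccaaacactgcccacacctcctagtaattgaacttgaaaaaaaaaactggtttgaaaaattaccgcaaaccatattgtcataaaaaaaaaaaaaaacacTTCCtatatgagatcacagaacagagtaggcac
Il7r, GRCm38.p6 chr15:9529877-9530126, minus strand: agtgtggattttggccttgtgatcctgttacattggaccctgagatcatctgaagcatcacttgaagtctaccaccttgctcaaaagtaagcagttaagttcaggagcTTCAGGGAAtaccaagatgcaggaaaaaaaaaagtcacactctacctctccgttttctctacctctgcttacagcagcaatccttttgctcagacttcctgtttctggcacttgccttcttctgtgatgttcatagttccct

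The Bcl2 stretch held 2 matches to TTCC or GGAA, which began 94 and 29 bases before the start, and the Il2ra stretch held 3, the first 200 and the last 33 bases before it. Such short matches are found in 96.0% of the 32851 promoters of the table, which run from 250 bases before to 50 after each start, so their presence sets no promoter apart. Base composition differed, with 74.8% G or C in the Bcl2 stretch and 42.4% in that of Il2ra. The full core TTCNNNGAA was in 8.30% of all promoters, and in at least 1 promoter of 9.55% of all genes. It was in 0 of the 5 promoters of Il2ra, Bcl2, Mcl1 and Pim1, where Pim1 has more than 1 annotated start. Among 11 receptor and signalling genes, of which 10 matched, Il7r alone held it, as TTCAGGGAA beginning 142 bases before the start. Among 22 survival genes, of which 20 matched with 31 promoters, 0 held it. The same core with 1 more base in its middle was in 6.95% of all promoters, and in at least 1 promoter of 8.01% of all genes. It was in 0 of the 13 promoters of the receptor and signalling list. In the survival list it was in 1 of the 31 promoters, of Bcl2l1, the gene of the anti-apoptotic protein Bcl-xL. These letters were read only in the promoter window and not under the peaks, and whether any peak lies at a promoter was not analysed.

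**Figure D1:**
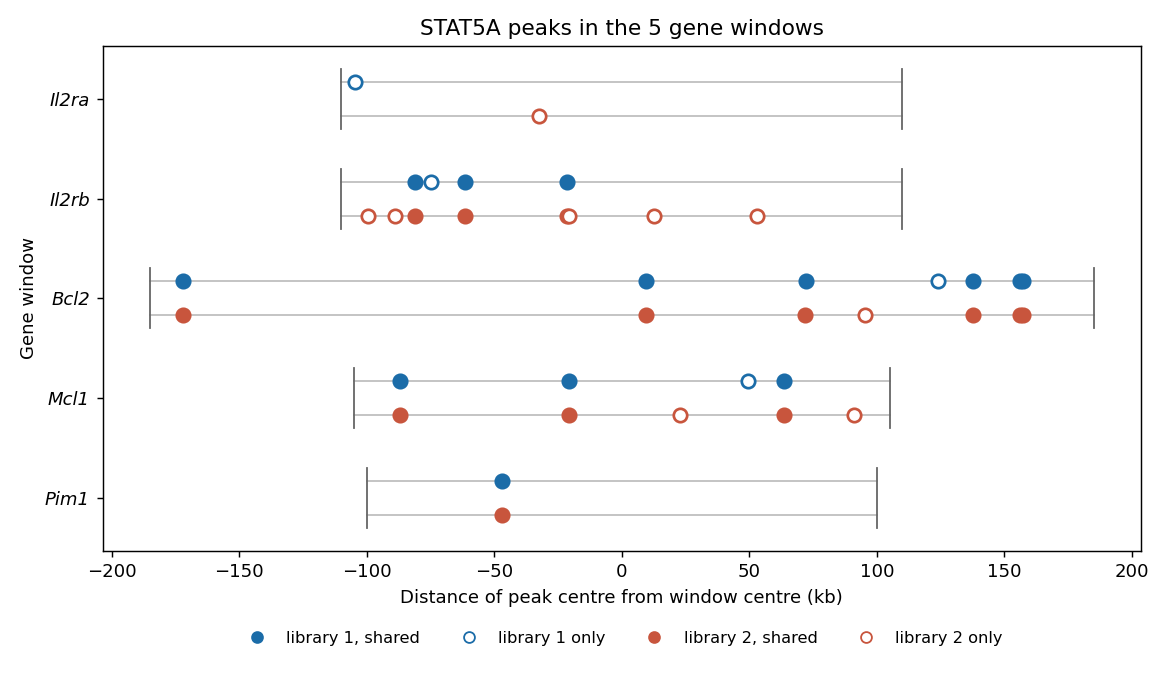
Position of every STAT5A peak in the 5 gene windows. The horizontal axis gives the distance of the peak centre from the window centre in kb, each gene has 1 line per library, filled circles are sites found in both libraries and open circles are peaks of 1 library, and vertical bars are the window edges. The Bcl2 window holds 6 shared sites, 3 of them near its right edge, and the Il2ra window holds 2 peaks that do not coincide.

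Peaks of the 2 libraries that overlapped by 1 bp or more were taken as 1 shared site. In the windows, 13 of the 17 library 1 peaks were shared, which is 76.5% (95% Wilson interval 52.7 to 90.4%), against 53.9% of the whole library 1 list. In library 2, 13 of 22 were shared, which is 59.1% (38.7 to 76.7%), against 40.9% of the whole list. Both intervals cover counting error only and include the share of the whole list. They treat peaks as independent draws, which peaks clustered in 5 chosen windows are not, so they are no test. Density was higher than over the autosomes in both libraries, with 13.9 peaks per Mb in the windows against 5.86 per Mb in library 1, and 18.0 against 7.87 per Mb in library 2. The excess was not spread evenly over the genes. It lay in the windows of Il2rb, Bcl2 and Mcl1, while those of Il2ra and Pim1 held 1 peak per library each, or 4.55 and 5.00 peaks per Mb.

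For each gene, the autosomes were also laid out in consecutive windows of the same length as its own, to show how usual its number of peaks was. These windows were not matched for gene content, and the members' windows were placed around genes. They describe a background and are no test.

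The Il2ra window, 220 kb on chromosome 2 from 11480000 to 11700000, held 1 peak of each library and 0 shared sites, equal to the autosomal medians for windows of this length. Library 1 had a single peak at 11485448 to 11485652, with a score of 23. Of its list, 99.8% scored as high or higher and 71.4% scored 27 or higher, so 23 was a low but common score. Library 2 had a single peak elsewhere, at 11557284 to 11557472, with a score of 11. The 2 peaks were 71.8 kb apart, so the libraries agreed on no site in this window. At least 1 library 1 peak is found in 66.7% of autosomal windows of this length, at least 1 library 2 peak in 69.5%, and at least 1 shared site in 46.7%. The last 143 kb of the window held no peak of either library.

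A shared site lay just past the edge of the Il2ra window. Its library 1 peak, at 11706917 to 11707121, was centred 7.02 kb beyond the right edge and had a score of 67, which 0.636% of the list reached. The overlapping library 2 peak scored 9, near the bottom of that list, where 99.4% scored as high or higher. The same site therefore stood among the highest scores of one library and the lowest of the other. In the RefSeq order of genes on GRCm38.p6, Il2ra lies between Rbm17 and Il15ra, the gene of the IL-15 receptor alpha chain. On the left side the nearest peaks lay 77.9 kb (library 1, score 27) and 53.3 kb (library 2, score 10) outside the window.

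The Il2rb window, 220 kb on chromosome 15 from 78210000 to 78430000, held the most distinct sites of the 5, at 9. Library 1 had 4 peaks, a number reached in 6.53% of autosomal windows of this length, and library 2 had 8, reached in 1.32%. The 3 shared sites were reached or passed in 5.29%. At the first shared site, 78238846 to 78239050, the scores were 23 in library 1 and 13 in library 2. The next, at 78258632 to 78258836, scored 31 and 13. The remaining one, at 78298321 to 78298525, scored 23 and 12. Library 2 scores at the shared sites were thus nearly level, and all 3 were above that list's median of 11.

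Around the shared Il2rb sites lay 6 peaks of single libraries. Library 1 alone had a peak at 78245261 to 78245465 with a score of 31, which equals the highest library 1 score of this window, and the nearest library 2 peak was 6.43 kb away. Library 2 alone had 5 peaks, with scores of 9 to 13. Of these, the peak at 78299081 to 78299269 scored 13 and lay 0.752 kb from the nearest library 1 peak, too far to overlap it. The others lay 7.67 to 74.8 kb from any library 1 peak. The 3 shared sites and the library 1 peak all lay left of the window centre, and to its right library 2 alone had peaks, at 78332718 to 78332906 with a score of 11 and at 78373089 to 78373277 with a score of 12. In the RefSeq order Il2rb lies between Tmprss6 and C1qtnf6. Library 2 had a further 5 peaks within 50 kb of the window edges, all unshared, 1 of them 0.734 kb outside the right edge, and library 1 had 0.

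The Bcl2 window, 370 kb on chromosome 1 from 108340000 to 108710000, held the most shared sites. Each library had 7 peaks, and 6 of the 7 coincided in both. As many library 1 peaks are found in 2.11% of autosomal windows of this length, as many library 2 peaks in 10.6%, and as many shared sites in 0.694%. The longest stretch between peaks was 181 kb, between the first and the second shared site. Bcl2 lies between Phlpp1 and Kdsr in the RefSeq order.

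The first shared Bcl2 site, at 108352978 to 108353182, scored 27 in library 1 and 16 in library 2, a score that 18.1% of the library 2 list reached. The second, at 108534513 to 108534717, scored 23 and 18, the latter reached by 8.81% of the list. The next, at 108596943 to 108597147, scored 23 and 17, the latter reached by 12.7%. At these last 2 sites library 1 was at 23, near the bottom of its range, while library 2 was in the upper part of its own.

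The other shared Bcl2 sites formed a run. At 108662610 to 108662814 the scores were 35 and 10, at 108680899 to 108681103 they were 31 and 23, and at 108682064 to 108682268 they were 35 and 12. The score of 23 was the highest of any library 2 peak in the 5 windows, reached by 1.95% of the list, and 35 was the highest of library 1, reached by 33.3%. The 3 sites spanned 19.7 kb, with gaps between centres of 18.3 and 1.17 kb. Of all 7877 shared sites, 2.39% belonged to such runs, in which 3 or more sites follow each other at gaps of at most 20 kb. Another shared site within 2 kb, as in the last pair, was present for 1.36%. The limits of 20 kb and 2 kb were not part of the planned analyses, and they lie above the gaps of 18.3 and 1.17 kb. The 2.39% and 1.36% are therefore descriptions only. A limit of 10 kb on the gaps left 0 window sites in a run and a limit of 50 kb gave 7, both limits chosen after the data were seen.

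The unshared Bcl2 peaks were 1 of each library. Library 1 alone had a peak at 108648867 to 108649071 with a score of 35, as high as its highest shared site in the windows, 13.7 kb from the nearest library 2 peak. Library 2 alone had one at 108620184 to 108620372 with a score of 12, 23.2 kb from the nearest library 1 peak. Beyond the right edge no peak followed for 637 kb in library 1 and 668 kb in library 2. On the left, the nearest peak of each library, 59.1 kb and 59.0 kb outside the edge, was a shared site with scores of 63 and 12. The library 1 score there was reached by 0.998% of its list, so it exceeded every score inside the window.

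The Mcl1 window, 210 kb on chromosome 3 from 95360000 to 95570000, held 4 peaks in library 1 and 5 in library 2. As many are found in 5.85% and 7.59% of autosomal windows of this length, and as many as its 3 shared sites in 4.79%. The shared site at 95378082 to 95378286 scored 27 and 18, with centres 2 bp apart, the closest agreement of the 13. The site at 95444181 to 95444385 scored 31 and 10, and that at 95528433 to 95528637 scored 31 and 19. Library 2 scores of 18 and 19 were reached by 8.81% and 6.09% of its list, while the score of 10 lay low, with 89.9% at or above it. The Mcl1 window thus held both high and low library 2 scores at its shared sites, including 10 and 19 at sites that both scored 31 in library 1.

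A peak of library 2 alone carried the highest score of that library in the Mcl1 window. It lay at 95555850 to 95556038, scored 20, which 4.12% of the list reached, and was 27.4 kb from the nearest library 1 peak. The other library 2 peak, at 95487684 to 95487872, scored 12. The unshared library 1 peak, at 95514446 to 95514650, scored 23 and lay 14.0 kb from any library 2 peak. Mcl1 lies between Ensa and Adamtsl4 in the RefSeq order. The nearest peak outside the window was an unshared library 1 peak 12.0 kb to its left, with a score of 23. Within 50 kb on that side were also 2 further shared sites. The site at 95321719 to 95321923 scored 23 and 15, and the one at 95338286 to 95338490 scored 43 and 19. The right side had no peak within 50 kb.

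The Pim1 window, 200 kb on chromosome 17 from 29530000 to 29730000, held 1 site, found in both libraries at 29582964 to 29583168. Its scores were 27 in library 1, the median of that list, and 10 in library 2, which 89.9% of the list reached. At least 1 peak is found in 63.7% of autosomal windows of this length in library 1 and in 66.7% in library 2, and at least 1 shared site in 44.0%, so the count of this window was a usual one. Within 50 kb outside its edges lay 3 more shared sites. On the left, the site at 29518063 to 29518267 scored 31 and 13, and that at 29524840 to 29525044, which lay 5.06 kb from the edge, scored 27 and 12. On the right the shared site at 29751381 to 29751585 scored 27 and 10, and library 2 had 2 unshared peaks, 1 of them 0.885 kb from the edge. Pim1 lies between Fgd2 and Tmem217 in the RefSeq order.

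**Figure D2:**
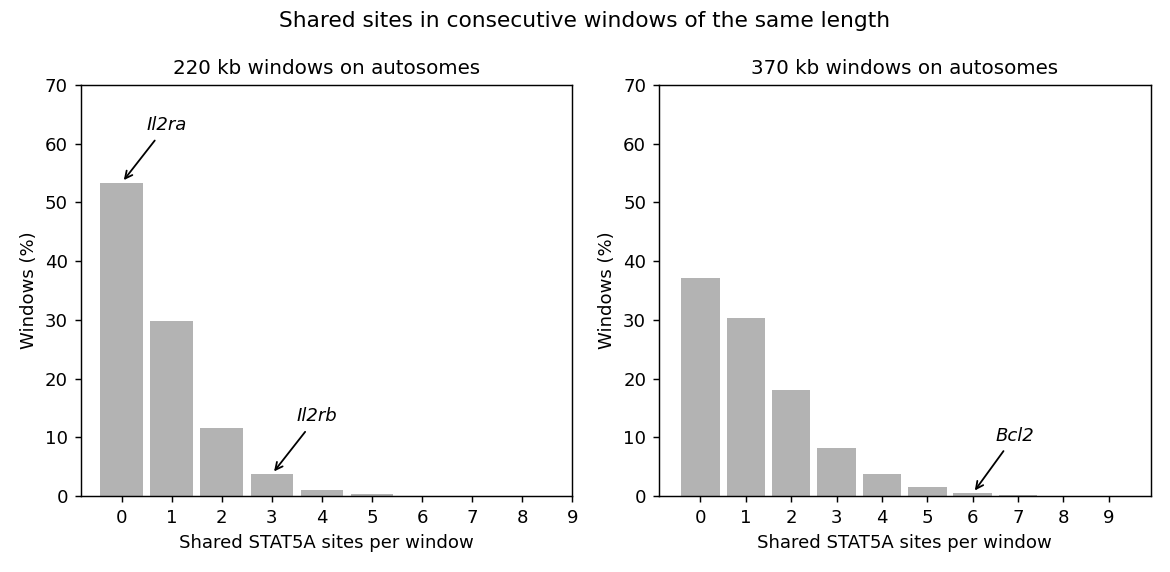
Shared STAT5A sites per window over the autosomes. Bars give the percentage of consecutive windows of 220 kb (left) and 370 kb (right) with each number of shared sites, and arrows mark the genes whose windows have that length. Il2ra, with 0 shared sites, falls in the tallest bar, Il2rb with 3 and Bcl2 with 6 fall in the upper tail.

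The scores of the window peaks were moderate. The score is the authors' own whole number per peak with no stated scale, so it is read only within a list. In library 1 the 17 peaks scored from 23 to 35 with a median of 27, equal to the median of the whole list, which ran from 19 to 179. Of these peaks 8 were above that median, against 49.4% of the list. In library 2 the 22 peaks scored from 9 to 23 with a median of 12, against 11 for the list, which ran from 8 to 267. Here 15 were above the median, against 48.8% of the list. By gene, these were 0 of 1 for Il2ra, 5 of 8 for Il2rb, 6 of 7 for Bcl2, 4 of 5 for Mcl1 and 0 of 1 for Pim1. The highest scores of either list lay outside the 5 windows, while 6 library 1 peaks were at 23 and 1 library 2 peak was at 9. In library 1, 99.8% of the list scored 23 or higher and 71.4% scored 27 or higher, so 23 was a low but common score. In library 2, 99.4% scored 9 or higher and 89.9% scored 10 or higher.

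In library 1 the 13 shared and the 4 unshared window peaks both had a median score of 27, against 31 for shared and 27 for unshared peaks of the whole list. In library 2 the medians were 13 for shared and 12 for unshared peaks, against 12 and 11 over the whole list. The 2 libraries ordered the shared Bcl2 sites differently. Both sites at 35 in library 1 had the lowest library 2 scores of that window, 10 and 12, and both sites at 23 had scores of 18 and 17. The order was not simply reversed, since the site at 31 in library 1 had the highest library 2 score, 23, and the site at 27 had 16. Only 4 of the 13 shared sites, 2 at Bcl2 and 1 each at Il2rb and Mcl1, stayed shared when each list was reduced to peaks above its median score. That left 4 of 8 library 1 peaks (50.0%) and 4 of 15 library 2 peaks (26.7%), against 36.8% and 28.3% of the whole lists treated in the same way.

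**Figure D3:**
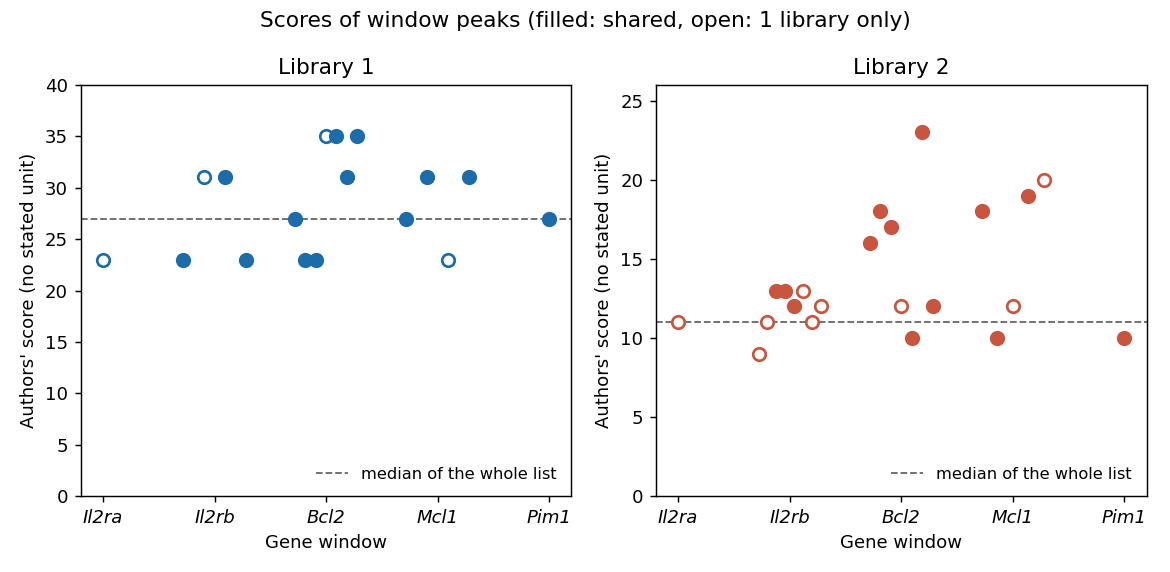
Scores of the window peaks by gene in library 1 (left) and library 2 (right). The vertical axis is the authors' score without a stated unit, starting at 0, points run from left to right in genome order within each gene, filled circles are shared and open circles unshared, and the dashed line is the median of the whole list. Library 1 peaks lie between 23 and 35 around the line at 27, and library 2 peaks reach 23 at Bcl2 and 20 at Mcl1.

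Paired peaks were close by definition, since they had to overlap by 1 bp or more. Over the 13 shared sites the centres lay 2 to 110 bp apart with a median of 33 bp, against 27 bp over all shared pairs. Pairs more than 50 bp apart numbered 4, of which 3 were at Bcl2 and 1 at Il2rb, against 22.1% of all pairs. The widest, the second Bcl2 site, overlapped by 87 bp with centres 110 bp apart, and it was the 1 site lost when centres had to lie within 100 bp or peaks to overlap by 50% of both widths. Under either rule 12 sites were shared, 5 of them at Bcl2.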

How the data were processed

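The authors' deposited peak lists give chromosome, start, end and a whole-number score per peak, called separately for each ChIP library. HOMER and mm9 are named in the submitters' processing notes. How the score was scaled and which threshold, control and filters were applied is not stated in these sources, and the name of the library 1 list has a suffix that no source explains. Positions were converted to count from 1. Members were peaks with their centre in a window, and all 39 are accounted for. The plan of what to name, apart from the rule for members, covered all members, the nearest peaks outside, and listed genes whose promoter held TTCNNNGAA. The search for TTCC and GGAA and the description of sites within 50 kb of a window were added after the data were seen. Runs and close pairs of shared sites were also outside the plan. Members, windows and gene lists were chosen with earlier results of these data known. Background windows were laid end to end from the first to the last peak of each of the 19 autosomes, and autosomal density used the same spans. No p-value is given, because peaks of the input were not analysed, no other contrast was available and peaks are not replicates. Python 3.11.15, numpy 2.4.6, pandas 2.3.3 and matplotlib 3.10.9 were used. The overlap and window functions were tested on simulated data. Alternatives covered window edges, score, list length, overlap rule and background.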

Additional observations from a re-analysis of the deposited data

How the results depend on the processing

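The windows' edges and the score threshold moved the counts most. When each list was reduced to scores above its median, library 1 had 8 window peaks in place of 17, and 4 sites were shared in place of 13. That was 50.0% and 26.7% of the window peaks of libraries 1 and 2, against 36.8% and 28.3% of the whole lists so reduced. The cut keeps 49.4% and 48.8% of the peaks of the lists, so a fall in these counts follows from the setting. Widening each window by 50 kb on both sides gave 35 library 2 peaks in place of 22. It gave 1 shared site at Il2ra, 5 at Mcl1 and 4 at Pim1, while Bcl2 and Il2rb kept their counts of 6 and 3. A wider window can only hold as many peaks or more. On chromosome 1 alone, 0.382% of windows held as many shared sites as the Bcl2 window, in place of 0.694%. Of the 49 alternative values for totals, shares, percentiles and background, the other 43 were counted as unmoved. For counts and ratios this meant within a factor of 1.5, and for shares within the Wilson interval. Percentiles had no error of their own. They were counted as unmoved when the change was no larger than the standard deviation of the medians of libraries 1 and 2. That is a wide limit, so the changes themselves are given here. Ranked among shared peaks only, shared window peaks went from a median percentile of 69.5 to 59.5 in library 2. In library 1 they went from 39.6 to 34.4. Ranked within the same chromosome, all window peaks went from 57.9 to 60.3 in library 2 and from 39.6 to 40.0 in library 1. Of the 82 values for single windows and for runs of sites, 25 moved by more than a factor of 1.5. Among them, narrowing the windows by 25 kb left 0 library 1 peaks at Il2ra, and above the median score Il2ra and Pim1 had 0 peaks in either library. With either library left out, 5 windows held a peak of the remaining one. No site can be shared within 1 library, so these values, though among the 43, say nothing on the number of windows with a shared site. No paired analysis was possible because no test between groups was made. With unknown depth and no input peaks, STAT5A binding at a shared site and background present in both libraries cannot be told apart, and absence from a list does not show that a site was free of STAT5A.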
